A study of Mus musculus with 4 samples.

Results

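In the stomach of *c-Myc* transgenic mice, read counts of mast cell proteases were higher than in WT mice, and those of the mucosal type were higher by far more than those of the connective tissue type. Mean normalized counts of *Mcpt1* and *Mcpt2* together were 12.5-fold those of WT, against 2.54-fold for *Mcpt4*, *Cma1* and *Cpa3* together. Without WT replicate 2, which had more of the mucosal type than WT replicate 1, these were 23.2-fold and 3.02-fold, and without WT replicate 1 they were 8.57-fold and 2.19-fold. The receptor tyrosine kinase gene *Kit*, by contrast, lay at 0.90 of its WT mean. The 10 genes described here are these 5 proteases, the tryptases *Tpsb2* and *Tpsab1*, and the receptor genes *Ms4a2*, *Fcer1a* and *Kit*, out of 46095 gene rows. They are known mast cell genes, and they were chosen by their counts in MYC-KI against WT samples, with the difference between the genotypes already known. Their change between MYC-KI and WT samples is therefore given as a description. No p-value is given for any of them, and counts of those that passed a threshold are no evidence about them.

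Bulk RNA sequencing was performed on stomachs of C57BL/6 mice at 12 weeks of age, with 2 WT and 2 MYC-KI samples analysed here although the series text speaks of triplicates. MYC-KI mice carry *Atp4b-cre;MycOE*. In these mice the *Atp4b* promoter drives Cre in parietal cells and their lineage, where Cre turns on the human *c-Myc* transgene. Mast cells are not part of that lineage. WT mice were Myc fl/fl littermates, which carry the floxed allele without Cre. The labels give no treatment for any sample. No label says how each sample relates to an individual mouse. The p-values given measure the spread between these samples, whatever its source.

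Mast cells are granulated cells of the immune system that mature in the tissue under stem cell factor, the ligand of KIT. In rodents they are divided into a mucosal type, found in the epithelium and lamina propria of the gut, and a connective tissue type, found in the submucosa, muscle and skin. Both types carry the high-affinity IgE receptor on their surface, and they differ in the serine proteases that they store in their granules.

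Counts were assigned to genes by a re-sorted order of names. In the deposited table the row names are not in the order of the MYC-KI counts, so these counts were matched, one after another, with the names sorted by character code, while the WT columns were left in place. Over all rows, Pearson's r between the genotypes was 0.984 after this step and 0.526 before it. Over the 61 rows around each of the 10 genes, r was between 0.956 and 0.994 after the step, and no shift of up to 5 rows gave a higher r. *Cpa3* is the only one of the 10 whose row stands at the same place in both orders, so its counts do not depend on the re-sorting. The names of the other 9 moved by between 1 and 397 places. As deposited, *Mcpt1* stood beside 2281 and 2881 MYC-KI counts, which are those of *Mcpt2* after re-sorting, and *Mcpt4* beside 3 and 1, which are those of *Mcpt8*. *Kit* stood beside 6592 and 11431, which are those of *Kitl*.

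The samples held between 30260305 and 41463647 counts. The stomach was recognisable in WT by its defining genes, and all 7 genes of a stomach mucosa list were called lower in MYC-KI mice, where a call required an adjusted p under 0.05 in edgeR's quasi-likelihood test and a fold above 1.5. Their summed normalized counts in TMM CPM, which are counts scaled to a common library total by the trimmed mean of M values, were 123169 and 124697 in WT and 8844 and 13543 in MYC-KI. In the mouse *Myc* row stood 1062 and 759 counts for WT and 735 and 1091 for MYC-KI, and the transgene has no row under its own name. WT replicate 2 differed from the other 3 samples in sex-linked genes, with 17846 counts of *Xist* against 85 to 201, and 5 of *Ddx3y* against 1861 to 2623.

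The first sequences are those before the starts of 2 proteases of the same locus that belong to different mast cell types. On chromosome 14 of GRCm38 (GENCODE M21), *Cma1* (55941451 to 55944675, minus strand), *Mcpt1* (56017971 to 56020384, plus strand), *Mcpt2* (56042041 to 56044642, plus strand) and *Mcpt4* (56059629 to 56062313, minus strand) lie in 1 chymase locus. The 250 bases before the start of *Mcpt1*, at chr14:56017714-56017963 on the plus strand, and of *Mcpt4*, at chr14:56062311-56062560 on the minus strand, are printed here from RefSeq (GRCm38.p6), 5′ to 3′ on the strand of the gene. They are shown because the first belongs to the gene with the largest difference among the 5 proteases and the second to the gene with the smallest. Capitals mark GATA or its reverse complement TATC, the core letters that GATA factors, which include the mast cell factor GATA2, are known to bind.
Mcpt1: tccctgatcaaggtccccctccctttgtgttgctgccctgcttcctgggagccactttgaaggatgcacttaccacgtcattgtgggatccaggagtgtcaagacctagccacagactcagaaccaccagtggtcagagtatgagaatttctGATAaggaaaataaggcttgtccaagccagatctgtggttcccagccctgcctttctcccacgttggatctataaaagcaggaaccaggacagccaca
Mcpt4: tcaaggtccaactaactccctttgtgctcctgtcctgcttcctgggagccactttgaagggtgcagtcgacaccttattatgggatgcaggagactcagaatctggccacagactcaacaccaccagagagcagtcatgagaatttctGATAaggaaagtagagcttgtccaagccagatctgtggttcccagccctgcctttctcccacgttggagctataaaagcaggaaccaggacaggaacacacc

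Aligned over 242 bases, these promoters were 86.4% identical, and their longest shared run was 53 bases, starting 83 bases before the *Mcpt1* start and 87 before that of *Mcpt4*. The window of *Mcpt1* was less like those of the other connective tissue type genes, at 62.2% for *Cma1* and 63.9% for *Cpa3*. Each holds GATA once, at position -98 in *Mcpt1* and -102 in *Mcpt4*, counted from the RefSeq start, which differs by a few bases from the GENCODE start given above. Of the 32817 promoter windows of the same length, 53.6% hold these core letters on either strand. At both places they stand within the longer motif TGATAA, which overlaps the core and was also searched on both strands. The longer motif was found in 7.95% of windows. The E-box letters CANNTG, which read the same on both strands, were found in 66.2% of windows and in neither of these. With GATA or TATC on either strand, *Cma1* held 3 matches, *Cpa3* 3, *Ms4a2* 5, *Fcer1a* 2 and *Kit* 0. The match is a description of letters in these windows, and the RNA counts do not measure binding there.

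Along the longest annotated transcripts, *Mcpt1* was 81.8% identical to *Mcpt2* and 85.2% to *Mcpt4*, and *Tpsb2* was 69.6% identical to *Tpsab1*. *Cma1* was less like the others, at 65.1% for *Mcpt1*, 64.3% for *Mcpt2* and 67.7% for *Mcpt4*. No stretch of 50 bases was shared exactly between 2 of the chymase genes *Mcpt1*, *Mcpt2*, *Mcpt4* and *Cma1*, or between the 2 tryptase genes, while 0.661% of the 50-base stretches of *Mcpt4* were also in *Mcpt9*, of the same locus. How the counting treated reads that match several copies is not given in the sources used here. Summed over the 6 rows *Mcpt-ps1*, *Mcpt1*, *Mcpt2*, *Mcpt4*, *Mcpt8* and *Mcpt9*, the counts were 329 and 585 in WT and 5209 and 7486 in MYC-KI. The difference of mean normalized counts was 10.4-fold, with 7.66-fold without WT replicate 1 and 16.4-fold without WT replicate 2.

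*Mcpt1* encodes a chymase of mucosal mast cells that is released into the gut during worm infection and serves as a marker of this cell type. It had 40 counts in WT replicate 1, 167 in WT replicate 2, 2728 in MYC-KI replicate 1 and 4212 in MYC-KI replicate 2. In TMM CPM these were 1.19, 5.99, 80.4 and 94.3. Both MYC-KI samples were far above both WT samples, and the WT samples also stood apart from each other. The fitted log2 fold change was 4.62 with a standard error of 0.79 (edgeR). It was 3.87 without WT replicate 1 and 6.19 without WT replicate 2, and the 3 samples left in the latter are alike in the sex-linked genes named above.

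*Mcpt2* encodes the second protease of the mucosal type. Its TMM CPM was 5.42 and 11.9 in WT and 67.3 and 64.5 in MYC-KI, from 182, 332, 2281 and 2881 counts. The groups did not overlap, and the log2 fold change was 2.93 (standard error 0.41). It was 2.47 without WT replicate 1 and 3.60 without WT replicate 2. In WT, *Mcpt1* had fewer counts than *Mcpt2* in both samples, with ratios of 0.220 and 0.503. In MYC-KI the order was the opposite, with ratios of 1.20 and 1.46.

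Of the connective tissue type, *Mcpt4* encodes the chymase that is regarded as the counterpart of human chymase. Its TMM CPM was 3.19 and 2.65 in WT and 4.60 and 5.80 in MYC-KI, from 107, 74, 156 and 259 counts. MYC-KI samples were higher by a small margin without overlap, with a log2 fold change of 0.83 (standard error 0.28). *Cma1*, which encodes mast cell protease 5, had 2.86 and 3.44 in WT and 8.52 and 7.88 in MYC-KI, from 96, 96, 289 and 352 counts. Here the samples of each genotype lay close together, and the log2 fold change was 1.38 (standard error 0.23).

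*Cpa3* encodes carboxypeptidase A3, which is stored in the granules bound to heparin. Its TMM CPM was 3.40 and 6.92 in WT and 14.9 and 15.3 in MYC-KI, from 114, 193, 506 and 681 counts. The MYC-KI samples were nearly equal, WT replicate 2 was about midway on the log scale, and the groups did not overlap. The log2 fold change was 1.55 (standard error 0.38). It was 1.12 without WT replicate 1 and 2.15 without WT replicate 2. This gene, on chromosome 3, gives the same counts in both orders of the table.

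Tryptases are trypsin-like proteases of mast cell granules. *Tpsb2* had a TMM CPM of 5.13 and 7.78 in WT and 32.1 and 18.8 in MYC-KI, from 172, 217, 1088 and 842 counts. The groups did not overlap and MYC-KI replicate 1 was the highest, with a log2 fold change of 1.98 (standard error 0.36). *Tpsab1* encodes a second tryptase, whose protein is known to be missing from C57BL/6 mice because of a splice-site mutation. It had 0.54 and 1.43 in WT and 4.98 and 2.80 in MYC-KI, from 18, 40, 169 and 125 counts. Its log2 fold change was also 1.98, with a larger standard error of 0.63. It was 1.44 without WT replicate 1 and 2.85 without WT replicate 2. *Tpsb2* counts were 9.56 and 5.43 times those of *Tpsab1* in WT and 6.44 and 6.74 times in MYC-KI, so the ratios in MYC-KI lay within the range of WT.

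The IgE receptor is built from an alpha chain that binds IgE (*Fcer1a*), a beta chain (*Ms4a2*) and a gamma chain shared with other Fc receptors (*Fcer1g*). *Fcer1a* had a TMM CPM of 0.30 and 0.57 in WT and 2.03 and 2.75 in MYC-KI, from 10, 16, 69 and 123 counts. *Ms4a2* had 0.57 and 0.75 in WT and 2.51 and 2.40 in MYC-KI, from 19, 21, 85 and 107 counts. Both were higher in MYC-KI samples without overlap, with log2 fold changes of 2.46 (standard error 0.50) for *Fcer1a* and 1.89 (standard error 0.37) for *Ms4a2*. The gamma chain *Fcer1g*, which stands in the row after *Fcer1a* and is also made by macrophages and other leukocytes, had 176, 112, 90 and 93 counts. Its log2 fold change was -0.97 with an adjusted p of 0.109 in edgeR's test, so no change was called.

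*Kit* encodes the receptor for stem cell factor, which is also made by interstitial cells of Cajal, the pacemaker cells of the gut muscle. Its TMM CPM was 57.1 and 64.2 in WT and 56.0 and 53.4 in MYC-KI, from 1915, 1791, 1901 and 2386 counts. Both MYC-KI samples were slightly below both WT samples, with a log2 fold change of -0.15 (standard error 0.10). The sign depends on the scaling, since library size without scaling factors gave 0.08. Of 4 other genes of the interstitial cells, *Ano1* was called higher (log2 fold change 1.09, adjusted p = 0.0286 in edgeR's test), although this gene is also made by epithelia. It made up most of the sum of the 4 genes, which was 150 and 180 TMM CPM in WT and 310 and 313 in MYC-KI. The other three, named after their values had been seen, were not called, at -0.30 for *Etv1*, -0.59 for *Thbs4* and 0.21 for *Prkcq*, and the median of the 4 was -0.04. The part of those cells in the *Kit* counts was not tested.

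**Figure D1:**
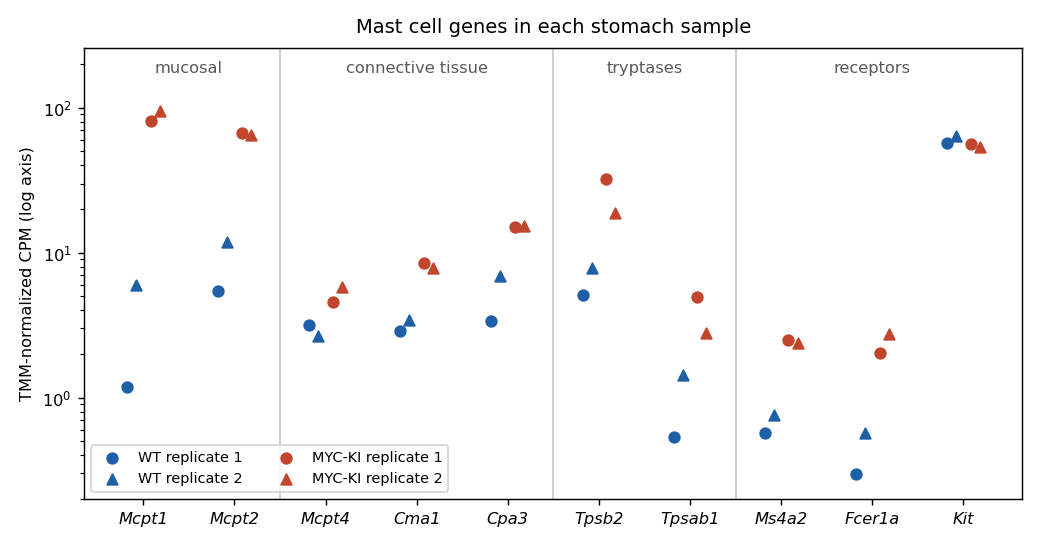
TMM CPM on a log axis (y) of the 10 mast cell genes (x) in each sample, with WT in blue, MYC-KI in red, circles for replicate 1 and triangles for replicate 2. MYC-KI points lie above WT points for 9 genes, with the widest gap for *Mcpt1* (1.19 and 5.99 against 80.4 and 94.3), and below them for *Kit*.

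Across the 10 genes, the MYC-KI samples lay above both WT samples for 9 and below both for 1, *Kit*. Over all 17643 tested genes, 33.3% had both MYC-KI samples above both WT samples and 31.5% had them below. In edgeR's test 6 of the 10 were called higher (*Mcpt1*, *Mcpt2*, *Cma1*, *Tpsb2*, *Ms4a2* and *Fcer1a*) and 0 lower, while 5.65% of all tested genes were called higher and 5.08% lower. At an unadjusted p under 0.05, 9 were higher and 0 lower, against 17.7% and 16.4% of all tested genes. DESeq2 called 8 higher and 0 lower, against 8.23% and 9.49% of all genes it tested. Because the genes were listed from this same difference, nothing is read from these counts. All 10 passed the filter on low counts, which asked for at least 0.296 CPM in 2 samples, and *Fcer1a* passed it only through the MYC-KI samples, since 1 WT sample was below. The median log2 fold change was 1.94 for the 10 genes and 0.01 for all tested genes. Without WT replicate 1 or without WT replicate 2, 0 of the 10 and 0 of all tested genes were called by edgeR, with 7 and 8 of the 10 higher at an unadjusted p under 0.05, against 9.89% and 9.97% of all tested genes. In bulk tissue, more cells of a type and more RNA per cell, or fewer and less, cannot be told apart.

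**Figure D2:**
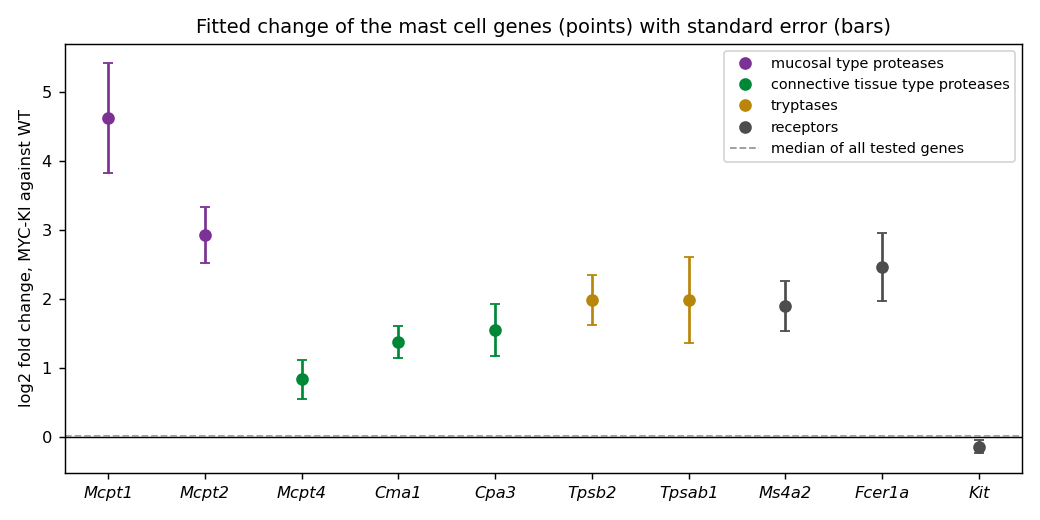
Log2 fold change of MYC-KI against WT (y) fitted by edgeR for each of the 10 genes (x), as points with bars of 1 standard error, coloured by role. The mucosal type proteases lie at 4.62 and 2.93, those of the connective tissue type between 0.83 and 1.55, and *Kit* at -0.15, next to the dashed median of all tested genes at 0.01.

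The comparison of protease types was made within each sample, where library scaling cancels. The ratio of summed counts of *Mcpt1* and *Mcpt2* to those of *Mcpt4*, *Cma1* and *Cpa3* was 0.700 in WT replicate 1, 1.37 in WT replicate 2, 5.27 in MYC-KI replicate 1 and 5.49 in MYC-KI replicate 2. WT samples thus held similar counts of the mucosal and the connective tissue type, on either side of equality, and MYC-KI samples held mostly the mucosal type. As a share of the 5 proteases, *Mcpt1* and *Mcpt2* made up 41.2% (exact binomial 95% interval 37.0 to 45.5) and 57.9% (54.5 to 61.2) in WT. In MYC-KI they made up 84.0% (83.1 to 85.0) and 84.6% (83.8 to 85.4). These intervals cover counting error only.

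On the log2 scale the ratio was -0.03 ± 0.69 (SD, n = 2) in WT and 2.43 ± 0.04 (SD, n = 2) in MYC-KI, a difference of 2.45 or 5.48-fold. The smallest two-sided p that an exact permutation of 2 against 2 samples allows is 0.333, and the ratio was chosen with the values known, so it is not tested. The difference was 1.97 without WT replicate 1 and 2.94 without WT replicate 2. With *Mcpt1* left out of the mucosal type it was 1.67, and with *Mcpt2* left out it was 3.67, both chosen after the data had been seen. In the table as deposited the difference was -2.06. There *Cma1*, of the connective tissue type, stands beside 10320 and 12003 MYC-KI counts in place of 289 and 352, and *Mcpt1* and *Mcpt2* stand beside those of *Mcpt2* and *Mcpt4*.

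**Figure D3:**
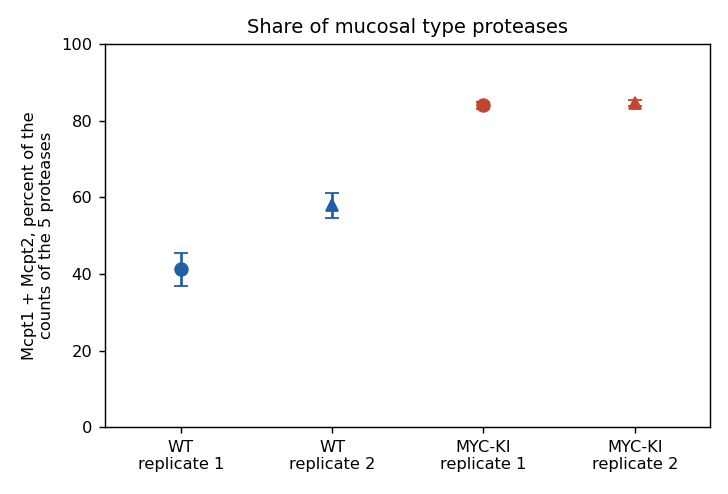
Share of *Mcpt1* and *Mcpt2* in the counts of the 5 proteases (y, percent) in each sample (x), with exact binomial 95% intervals as bars and the genotypes in blue (WT) and red (MYC-KI). The WT samples lie at 41.2% and 57.9% and both MYC-KI samples at about the same height, 84.0% and 84.6%.

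As sums over the genes of a type, TMM CPM of the mucosal type was 12.3 ± 7.97 in WT and 153 ± 7.85 in MYC-KI (SD, n = 2). The connective tissue type had 11.2 ± 2.52 and 28.5 ± 0.63, and the tryptases had 7.44 ± 2.51 and 29.4 ± 10.9, a 3.95-fold difference. The 9 genes without *Kit* summed to 32.0 ± 13.3 in WT and 216 ± 1.99 in MYC-KI. *Mcpt1* alone took 5.28% and 14.4% of the counts of these 9 genes in WT and 37.0% and 44.0% in MYC-KI. In each of these sums both MYC-KI samples were above both WT samples.

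To compare levels between genes, TMM CPM was divided by the length of the longest annotated transcript in kilobases. In WT the order of the means was *Kit* (11.6 per kilobase), *Mcpt2* (8.16), *Tpsb2* (5.01), *Cpa3* (3.56), *Mcpt1* (3.54), *Cma1* (2.89), *Mcpt4* (2.64), *Tpsab1* (0.51), *Fcer1a* (0.44) and *Ms4a2* (0.28). The samples of neighbours in this order overlapped at each step except that from *Mcpt4* to *Tpsab1*. In MYC-KI the order of the levels was *Mcpt1* (86.2 per kilobase), *Mcpt2* (62.1), *Tpsb2* (19.8), *Kit* (10.4), *Cpa3* (10.4), *Cma1* (7.52), *Mcpt4* (4.69), *Fcer1a* (2.40), *Tpsab1* (2.02) and *Ms4a2* (1.02). There, neighbours overlapped only between *Kit* and *Cpa3* and between *Fcer1a* and *Tpsab1*. *Mcpt1* thus moved from the fifth place to the first, and *Kit* from the first to the fourth.

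Other proteases of the chymase and tryptase loci had few counts. Of 8 genes 4 were tested, and edgeR called 0 (1 at an unadjusted p under 0.05, and 1 call by DESeq2). *Gzmc*, a granzyme gene of the same locus, had 0 and 2 counts in WT, compared with 28 and 55 in MYC-KI, a ratio of 32.5 with a counting interval of 8.71 to 272. Named after their values had been seen, *Mcpt9* had 0, 7, 13 and 68 counts and *Cma2*, which did not pass the filter on low counts, had 0, 2, 7 and 64. The MYC-KI samples differed strongly from each other in both, while the WT counts were too few to compare. *Gzmc* and *Mcpt9* passed that filter only through the MYC-KI samples, so a difference was built into their being tested. *Tpsg1*, a tryptase anchored in the membrane, had 11, 29, 104 and 77 counts (log2 fold change 1.81, adjusted p = 0.155). *Gzmb*, which encodes granzyme B, had 72, 17, 173 and 65 (1.24, adjusted p = 0.393). *Mcpt8*, the basophil protease, had 0, 1, 3 and 1, at the limit of what could be detected at this depth.

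Among 13 genes of granule storage, amines and eicosanoids, all tested, 2 were called higher and 3 lower. The higher ones encode enzymes of lipid mediators. *Alox5*, the lipoxygenase that starts leukotriene synthesis, had 315 and 250 counts in WT, compared with 1424 and 1309 in MYC-KI (log2 fold change 1.96, adjusted p = 0.0213). *Hpgds*, the prostaglandin D synthase of haematopoietic cells, had 84, 99, 315 and 364 (1.53, adjusted p = 0.0408). Both are also known from tuft cells. Of 6 tuft cell genes, chosen after these values had been seen, *Dclk1* had 823 and 846 counts in WT, compared with 4214 and 3689 in MYC-KI, and *Trpm5* had 346, 325, 2331 and 1899. *Pou2f3* had 65, 76, 293 and 370 counts, *Gfi1b* 8, 9, 59 and 49, and *Chat* 5, 2, 21 and 29. *Gfi1b* and *Chat* passed the filter on low counts only through the MYC-KI samples. *Avil* had 8532, 7591, 7261 and 11357, with overlap in TMM CPM. The part of tuft cells in *Alox5* and *Hpgds* was not tested.

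The lower ones are amine genes. *Hdc*, the histamine-forming enzyme, had 2058 and 1017 counts in WT, compared with 292 and 665 in MYC-KI (log2 fold change -2.05, adjusted p = 0.0447). *Slc18a2*, the vesicular amine transporter, had 1225, 679, 471 and 542 (-1.23, adjusted p = 0.0467). *Tph1*, which starts serotonin synthesis, had 780, 747, 321 and 494 (-1.28, adjusted p = 0.0251). *Hdc* and *Slc18a2* are also genes of enterochromaffin-like cells, the histamine-storing endocrine cells of the stomach, and all 6 genes of that list were called lower. The summed TMM CPM of the list was 1291 and 752 in WT and 280 and 272 in MYC-KI, most of it from the granin genes *Chga* and *Chgb*. The part of those cells in the amine genes was not tested.

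Of 13 signalling genes below the IgE receptor, all tested, edgeR called 1 higher and 0 lower (4 lower at an unadjusted p under 0.05, and 1 lower by DESeq2). *Plcg2*, a phospholipase of immune receptor signalling, had 963 and 794 counts in WT, compared with 1767 and 2094 in MYC-KI (log2 fold change 0.79, adjusted p = 0.0251). *Lyn*, the kinase bound to the receptor, had 1518, 1360, 1834 and 1971 counts (0.06, adjusted p = 0.773). Of 17 other surface receptors and integrins 15 were tested, and edgeR called 0 higher (3 at an unadjusted p under 0.05, and 2 by DESeq2) and 3 lower. *Itga4*, an integrin chain used by mast cell progenitors to enter the gut, had 437, 411, 201 and 222 counts (-1.35, adjusted p = 0.0302). The complement receptors *C3ar1* (-1.17, adjusted p = 0.0421) and *C5ar1* (-1.85, adjusted p = 0.0335), which macrophages also make, were the other two. Named after their values had been seen, *Mrgprb2*, the receptor of connective tissue mast cells for basic peptides, had 1, 10, 34 and 30 counts, and it passed the filter only through the MYC-KI samples. *Il1rl1*, the IL-33 receptor, had 451, 469, 832 and 1581 (0.99, adjusted p = 0.0677). *Mrgprb1*, a related receptor gene of the list, had 16, 11, 0 and 2 counts and passed the filter only through the WT samples. None of these was called by edgeR.

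Of 8 transcription factors of the lineage 7 were tested, and edgeR called 1 lower and 0 higher (1 at an unadjusted p under 0.05, and 0 by DESeq2). *Mitf*, which acts in mast cells and in other cells, had 608 and 495 counts in WT, compared with 251 and 330 in MYC-KI (log2 fold change -1.28, adjusted p = 0.0216). The most abundant members were *Runx1* (0.46, adjusted p = 0.0458, under the fold threshold) and *Stat5b* (-0.06, adjusted p = 0.734). *Gata2*, named after its values had been seen as the factor whose core letters were searched, had 214, 237, 244 and 376 counts (0.07, adjusted p = 0.863).

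Among 12 growth, recruitment and maturation signals 5 were tested, and 1 was called in each direction. *Kitl*, stem cell factor, had 3895 and 3532 counts in WT, compared with 6592 and 11431 in MYC-KI (log2 fold change 0.89, adjusted p = 0.0403). *Il33*, an alarmin that activates mast cells, had 4009, 3590, 2602 and 3362 (-0.71, adjusted p = 0.0228). In TMM CPM the MYC-KI samples were above both WT samples for *Kitl* and below both for *Il33*. *Il3* and *Il9*, cytokines that drive mucosal mast cell growth, had no counts in any sample, which allows up to 3 counts per library. *Il13* had 0, 0, 2 and 2.

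Over these 6 lists 57 of 71 genes were tested, 4 were called higher and 8 lower, and the median log2 fold change was 0.07. Of all tested genes 5.65% were called higher and 5.08% lower, as given above. Without WT replicate 1, and likewise without WT replicate 2, edgeR called 0 of these genes in either direction. Each of these fits leaves 1 WT sample, so the lack of calls is no evidence about these genes. DESeq2 on all 4 samples called 10 higher and 10 lower of 59, against 8.23% and 9.49% of all genes it tested.

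**Figure D4:**
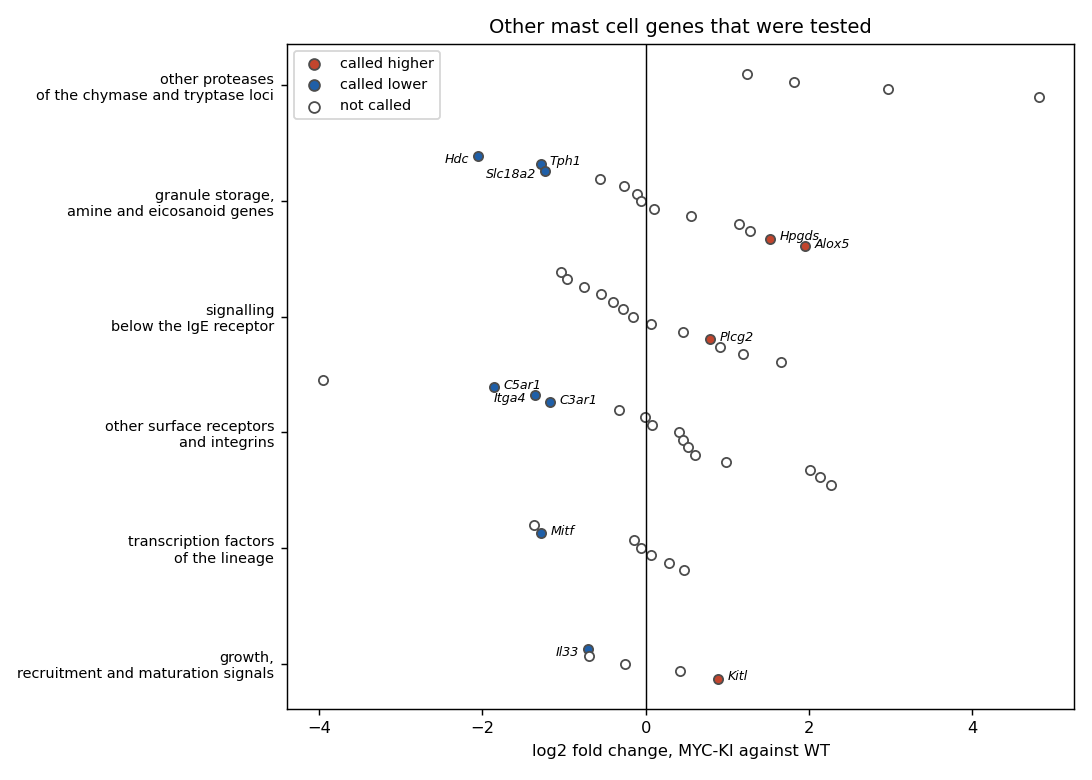
Log2 fold change of MYC-KI against WT (x) of the 57 tested genes of 6 mast cell lists (y), 1 point per gene, with called genes filled and named. The tested genes of the protease list lie to the right of 0 without a call by edgeR. Of these, *Gzmc* and *Mcpt9* passed the filter on low counts only through the MYC-KI samples. The 4 genes called higher and 8 called lower are spread over the other 5 lists.

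Markers of cells that share genes with mast cells were examined in 13 lists, with 52 of 75 genes tested, 2 called higher and 17 lower. The shares over all tested genes were 5.65% higher and 5.08% lower. Basophil genes summed to between 0.030 and 0.75 TMM CPM in WT and between 1.23 and 1.80 in MYC-KI, and of the 3 *Mcpt8* had at most 3 counts in every sample. Most of the sum in MYC-KI was *Cd200r3*, a receptor gene of basophils and mast cells, with 1, 15, 51 and 53 counts. It was named after its values had been seen, passed the filter only through the MYC-KI samples and was not called. Of 9 eosinophil genes *Siglecf* was called higher (log2 fold change 2.65, adjusted p = 0.0198 in edgeR's test), with 96, 79, 723 and 645 counts. It took most of the list's sum in MYC-KI, where the sums were 22.1 and 15.3 against 3.72 and 7.85 in WT. Other genes of the list did not follow it, and they are named after their values had been seen. *Ccr3* had 8, 79, 3 and 0 counts and *Il5ra* 2, 18, 0 and 1, neither of which passed the filter on low counts, and *Ear2* had a log2 fold change of -0.98 without a call. DESeq2 called 1 gene of the list higher and 1 lower. The eosinophil granule genes *Epx*, *Prg3*, *Ear1* and *Ear6* had 0 counts in all 4 samples, while *Prg2*, also named after its values had been seen, had 12, 5, 16 and 13, and *Siglecf* is also known from tuft cells. The neutrophil list summed to 4.83 and 2.04 in WT and 2.80 and 6.60 in MYC-KI, with overlap. Of its genes *Ly6g*, *Camp* and *Ngp* had 0 counts in all 4 samples, while *S100a9* had 153, 53, 76 and 275 and *S100a8* had 8, 3, 19 and 20, neither of them called. The melanocyte genes *Tyr* and *Tyrp1* had 0 counts in all 4 samples. Melanocyte genes, examined because melanocytes carry *Kit*, summed to between 2.62 and 4.36.

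General leukocyte genes did not follow the proteases. Of 7 such genes 3 were called lower, *Lyz2* (log2 fold change -1.60, adjusted p = 0.00975), *Csf1r* (-1.56, adjusted p = 0.0152) and *Itgam* (-1.76, adjusted p = 0.0212), which are genes of macrophages and related cells. edgeR called 0 higher (0 at an unadjusted p under 0.05, and 0 by DESeq2). The other 4, named after their values had been seen, overlapped between the genotypes and were not called. Their log2 fold changes were -0.04 for *Ptprc*, 0.12 for *Cd3e*, -0.28 for *Cd79a* and -0.16 for *Cd68*. Group 2 lymphoid genes summed to 48.8 and 52.4 TMM CPM in WT and 47.0 and 67.5 in MYC-KI, with overlap.

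Genes of other layers and regions of the stomach also differed between samples. Smooth muscle genes summed to 7640 and 4827 in WT and 2479 and 5270 in MYC-KI, and squamous genes of the forestomach to 2257 and 1262 in WT and 736 and 3845 in MYC-KI. Both lists overlapped between the genotypes, and edgeR called 0 genes of either (0 at an unadjusted p under 0.05, and 0 calls by DESeq2). The MYC-KI samples, which differed 5.23-fold in the squamous list, differed 1.08-fold in summed mucosal type proteases. Intestinal genes summed to 490, 337, 482 and 224. Of the pancreatic acinar list *Clps* was called lower (log2 fold change -7.13, adjusted p = 0.00635), and the list summed to 156, 127, 5.28 and 6.54. The part of these differences in the mast cell counts was not tested.

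**Figure D5:**
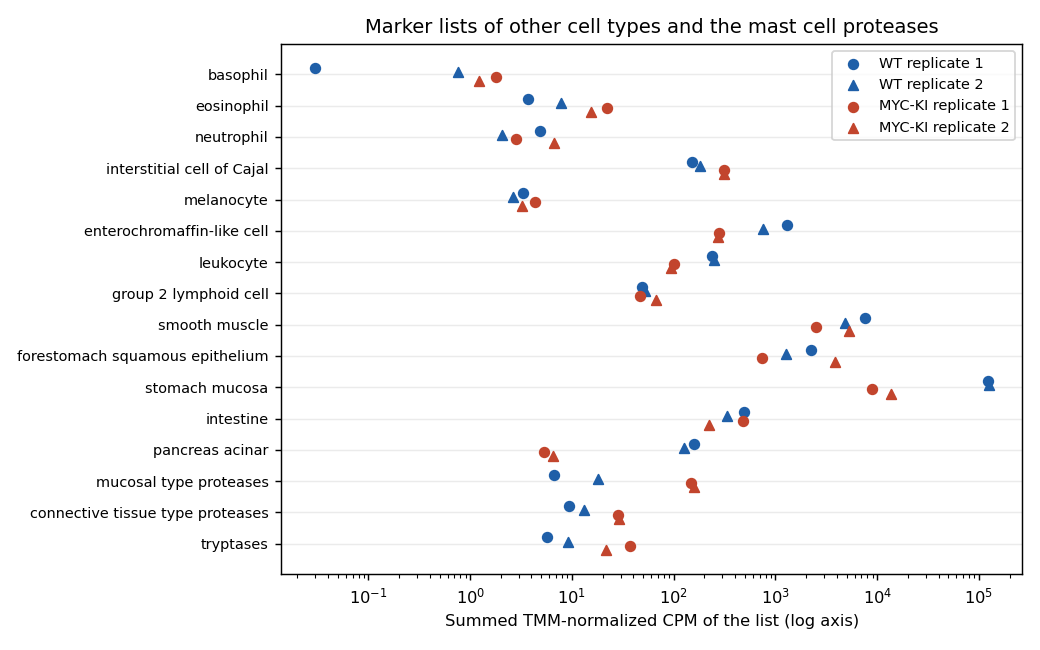
Summed TMM CPM on a log axis (x) of 13 marker lists of other cell types and of the mast cell protease types (y) in each sample, with WT in blue, MYC-KI in red, circles for replicate 1 and triangles for replicate 2. Stomach mucosa, pancreas acinar, enterochromaffin-like and leukocyte lists lie lower in MYC-KI, where most of the leukocyte sum is *Lyz2* and *Csf1r*. The mast cell proteases lie higher, as do the basophil, eosinophil and interstitial cell of Cajal lists. The other lists, among them smooth muscle and squamous, overlap.

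The genes whose pattern over the 4 samples was most like that of summed *Mcpt1* and *Mcpt2* were sought among all tested genes, by Euclidean distance of centred log2 TMM CPM with a prior count of 2. The nearest 5 were *Gzmc* (distance 0.40), *Scd3* (0.64), *Cyp2d34* (0.65), *Mcpt-ps1* (0.66) and *3830417A13Rik* (0.69). Each of the 5 had at most 9 counts in any WT sample, so the prior count weighs on their WT values and on these distances. All 5 passed the filter on low counts only through the MYC-KI samples, so being high there was a condition of being searched. *Mcpt-ps1*, a chymase pseudogene of the locus, had 0, 4, 28 and 65 counts. It overlaps *Cma2* on the opposite strand, and since the strand setting of the counting is not given in the sources used here, reads of the pair cannot be told apart. *Scd3*, a desaturase gene, had 1, 9, 112 and 111 counts, *Cyp2d34* had 0, 1, 34 and 33, and *3830417A13Rik* had 0, 1, 41 and 66. Of the other 8 mast cell genes described here *Fcer1a* was the nearest, at 1.53, and *Kit* the farthest, at 4.05.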

How the data were processed

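RNA was sequenced in 2 WT and 2 MYC-KI stomach samples. The authors deposited 1 table of raw, unnormalized read counts per gene symbol, 1 column per sample. HISAT2 and mm10 are named by the submitters' processing notes, and the counting tool, strand setting and annotation are not given in the sources used here. The counts of both MYC-KI columns were assigned in row order to the names sorted by character code.

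Counts were tested over all genes with edgeR 4.0.16 in R 4.3.3 (TMM, filterByExpr, glmQLFit and glmQLFTest, two-sided, Benjamini-Hochberg adjustment). Standard errors were taken as |log2 fold change| over the root of F. The steps were tested on simulated data. Alternatives were DESeq2 1.42.0, the paper's tool, other size factors, filters and fold thresholds, a replicate block, each sample left out, and the deposited order.

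The members and lists were chosen with earlier results of these data known. Named genes are the 10 members, called genes of each list (at most 3 per marker list) or, where fewer than 2 were called, its 2 most abundant, undetected markers, row neighbours, and the 5 nearest in pattern. Any other gene named was chosen after its values were seen. Replicates differed by more than counting noise (chi-square per degree of freedom 28.9 in WT and 97.9 in MYC-KI) and were kept separate. At these depths 0 counts allow up to 3. Coordinates are from GENCODE M21 (GRCm38, the assembly of mm10) and promoters from RefSeq, with sequences aligned in Biopython 1.88.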

Additional observations from a re-analysis of the deposited data

How the results depend on the processing

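For single genes among the 10, 74 of 110 alternative values kept their direction and call, 25 lost the call, 6 gained one and 5 turned. In the deposited order *Mcpt2* (-0.67), *Mcpt4* (-5.66), *Tpsb2* (-8.55) and *Kit* (1.96) turned, the difference between protease types was -2.06, and 7 of the 10 genes were called higher and 2 lower. There 42.7% of all tested genes were called higher and 41.5% lower, and other mast cell genes gave 27 higher and 29 lower of 65, and markers 22 and 26 of 63. With library size *Kit* turned (0.076), the median of all genes moved from 0.01 to 0.23, and other mast cell genes called higher were 10. They were 10 with DESeq2, 9 without a filter and 2 at a fold above 2, against 4.

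Without 1 sample, genes of the 10 called higher ranged from 0 to 4, other mast cell genes from 0 to 7 higher and 0 to 6 lower, and markers from 0 to 5 higher and 0 to 16 lower. Each of these fits leaves 1 sample in a genotype, and the share of all tested genes called also changed between them. These ranges are therefore no evidence about the genes of the lists. With the replicate number as a block, edgeR called 0 of the 10 genes (7 higher at an unadjusted p under 0.05, against 14.7% of all genes), 0 other mast cell genes in either direction (12 higher and 14 lower at an unadjusted p under 0.05), and 0 markers higher and 6 lower, while 0.646% of all genes were called. The deviations of same-numbered samples correlated at 0.067, and nothing in the labels pairs them. The difference between protease types was the same under the block and ranged from 1.97 to 2.94 without 1 sample. It moved to 1.67 without *Mcpt1* and to 3.67 without *Mcpt2*. *Fcer1a*, *Tpsab1* and *Ms4a2* had only 10 to 40 counts in each WT sample, which limits the precision of their values.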
